A study of Mus musculus with 24 samples.

Results

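NF-κB (nuclear factor kappa B) is a family of dimeric transcription factors that cells hold ready in the cytoplasm. Its 5 subunit genes and 5 genes for IκB proteins, the inhibitors and co-regulators that bind the dimers, were examined here in mouse pulmonary fibroblasts. The members were taken by gene symbol: Rela, Rel, Relb, Nfkb1 and Nfkb2 for the subunits, Nfkbia, Nfkbib and Nfkbie for the classical IκB proteins, and Nfkbiz and Bcl3 for the nuclear, atypical ones. They are 10 of the 55291 gene names counted in each library, and all 10 were among the 16258 genes with enough reads to be tested.

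Toll-like receptor 4 (TLR4) is a surface receptor for bacterial lipopolysaccharide and for molecules released by injured cells, and extracellular CIRP, the cold-inducible RNA-binding protein, is one of the latter. Its signal runs through a kinase complex that marks classical IκB proteins for destruction, which frees NF-κB dimers to enter the nucleus and start transcription of cytokine and chemokine genes. NF-κB also drives several genes of its own family, IκBα among them, and this feedback is a textbook feature of the pathway.

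Fibroblasts were grown from lungs of C57BL/6 mice, either wild type (WT) or TLR4-/- on the same strain background, aged 4 to 8 weeks. Each genotype's cells came from pools of 3 to 4 lungs, were used at passages 3 to 6 and rested overnight in the low-serum medium Opti-MEM. They then received PBS, recombinant mouse CIRP (rmCIRP, 1 μg/ml), recombinant mouse TGF-β1 (rmTGF-β1, 2 ng/ml) or both agents, and were lysed at 24 h. TGF-β1 is a growth factor that induces fibroblasts to differentiate into myofibroblasts. The 8 conditions gave 24 RNA-seq libraries, 3 each. The labels do not say whether the 3 libraries of a condition came from separate cultures, so p-values measure only the spread between these libraries, which may be technical.

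Each library held 29853346 to 39664606 reads on genes (median 33585047). Values below are normalized counts, that is, read counts divided by the library's size factor, and differences are log2 fold changes from one edgeR model over all libraries, called at an adjusted p under 0.1. Tlr4 mRNA did not separate the genotypes in the way the labels would have it: with PBS its normalized counts were 718, 802 and 758 in WT and 927, 892 and 891 in the libraries labelled TLR4-/-, higher by 0.25 on the log2 scale in the latter (SE 0.06, Benjamini-Hochberg adjusted p = 0.0012 by the quasi-likelihood test of edgeR). A count of a whole gene cannot tell one exon from another, so these libraries are named below by their label. rmCIRP left Tlr4 close to PBS in WT (log2 fold change -0.02), and rmTGF-β1 lowered it by 0.23 in WT and by 0.25 in the labelled TLR4-/- libraries. The genotypes also differed in Xist, at 0 to 3 reads in WT and 4403 to 6201 in the labelled TLR4-/- libraries. Y-linked Ddx3y was counted in both, at 3476 to 5044 reads in WT and 1738 to 2716 in the labelled TLR4-/- libraries.

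Of the cell type markers, the fibroblast genes were at high levels in every condition, with summed normalized counts between 391672 and 567908 over 8 genes. Markers of macrophages were also present, and more so in one genotype: their sum over 13 genes was 89627 to 97859 in WT with PBS and 333207 to 380689 in the labelled TLR4-/- libraries with PBS. In whole-culture RNA, more cells of a type and more RNA per cell cannot be told apart. One library stood apart before any test, replicate 3 of the labelled TLR4-/- cells given both agents. It differed from replicates 1 and 2 of its condition by a chi-square per degree of freedom of 47.2 and 32.4. The median over all replicate pairs was 4.81. Results that include its condition are given with and without it. The model shares 1 estimate of each gene's spread over all conditions, so this library also enters the SEs of the other comparisons. Those were refitted from only the libraries compared, but not with this library alone left out. Replicate 3 of the labelled TLR4-/- cells given rmTGF-β1 was the next most distant, at 12.4 and 16.2 from its replicates 1 and 2, which differed from each other by 3.66.

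The κB consensus, the 10-base site that NF-κB dimers bind, was searched on both strands in the 250 bases before the transcription starts that RefSeq gives in mouse assembly GRCm38.p6. RefSeq windows were at hand for 7 of the 10 members, 9 windows in all since Nfkb2 has 3, and not for Relb, Nfkb1 and Nfkbiz. A match stood in 6 of these 9 windows, belonging to 4 members, while 7.25% of all 32851 windows of that length held one. The 120 bases just before the start are printed for Nfkbia, Nfkbie and Nfkb2, which were among the 4 members that responded most to rmCIRP, for Rel, and for Rela, which responded least. The sequences run 5′ to 3′ on the gene's strand, and capitals mark the bases covered by a match.

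Nfkbia, chr12:55492648-55492767, minus strand: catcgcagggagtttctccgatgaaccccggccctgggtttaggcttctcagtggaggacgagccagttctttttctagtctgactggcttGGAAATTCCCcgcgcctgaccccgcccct
Nfkbie, chr17:45555580-45555699, plus strand: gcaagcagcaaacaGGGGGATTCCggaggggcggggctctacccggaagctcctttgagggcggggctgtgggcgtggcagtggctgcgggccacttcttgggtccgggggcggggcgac
Nfkb2, chr19:46304617-46304736, plus strand: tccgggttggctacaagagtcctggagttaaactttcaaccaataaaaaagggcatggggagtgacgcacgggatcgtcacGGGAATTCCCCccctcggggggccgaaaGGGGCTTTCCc
Rel, chr11:23770970-23771089, minus strand: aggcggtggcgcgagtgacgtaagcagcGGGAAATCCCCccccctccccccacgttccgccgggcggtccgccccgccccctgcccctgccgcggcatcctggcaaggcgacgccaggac
Rela, chr19:5637421-5637540, plus strand: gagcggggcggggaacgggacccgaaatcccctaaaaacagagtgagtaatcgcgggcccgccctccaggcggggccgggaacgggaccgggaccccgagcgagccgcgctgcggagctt

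The match of Nfkbia lay 20 to 29 bases before the start. In the printed window of Nfkb2, the one with the lowest coordinates of its 3, matches lay 29 to 39 and 2 to 11 bases before the start, and its other 2 windows, not printed, each held one, at 227 to 236 and at 216 to 225 bases before their own starts. The match of Rel lay 82 to 92 and that of Nfkbie 97 to 106. The stretches of 11 bases hold overlapping matches. Rela, Nfkbib and Bcl3 had none in the 250 bases. With rmCIRP in WT cells they rose by 0.28, 0.80 and 0.50 log2. The members with a match rose by 0.73 (Rel), 0.99 (Nfkb2), 1.21 (Nfkbie) and 1.62 (Nfkbia), and a link of match to response was not tested. A match describes these letters and is not a measurement of binding.

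To compare the members with one another, normalized counts were divided by the exon length of each gene in GENCODE M21, in kilobases. In WT cells with PBS, Nfkbia stood highest at 2152 ± 177 per kb (SD, n = 3). Rela followed with 855 ± 25.5, Nfkbiz with 756 ± 73.9 and Nfkb2 with 715 ± 26.2 per kb. The libraries of Nfkbiz and Nfkb2 overlapped, so their order is not resolved. Nfkbib, at 383 ± 17.98 per kb, and Nfkb1, at 376 ± 47.4, also overlapped. Relb had 242 ± 28.8 per kb. The lowest 3 were Nfkbie at 104 ± 4.23, Bcl3 at 99.5 ± 16.7, which overlapped each other, and Rel at 60.1 ± 3.31 per kb. The length used for Nfkb1, 12061 bases, is the union of all annotated exons and is longer than any one mRNA need be, which lowers its value on this scale. In this annotation, exons of Nfkb2 overlap genes on the opposite strand (AC114539.1 by 531 bases and Psd by 299), as do those of Nfkbib (Ccer2 by 314, Sirt2 by 42) and Bcl3 (Gm16175 by 161). Whether the counting used strand is not given in the sources used here, so reads there cannot be assigned with certainty. With rmCIRP the order changed behind Nfkbia (6625 ± 208 per kb): Nfkb2 with 1427 ± 43.1 and Nfkbiz with 1275 ± 57.9 stood above Rela with 1043 ± 25.8, and Nfkb1 with 1029 ± 33.9 overlapped Rela.

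**Figure D1:**
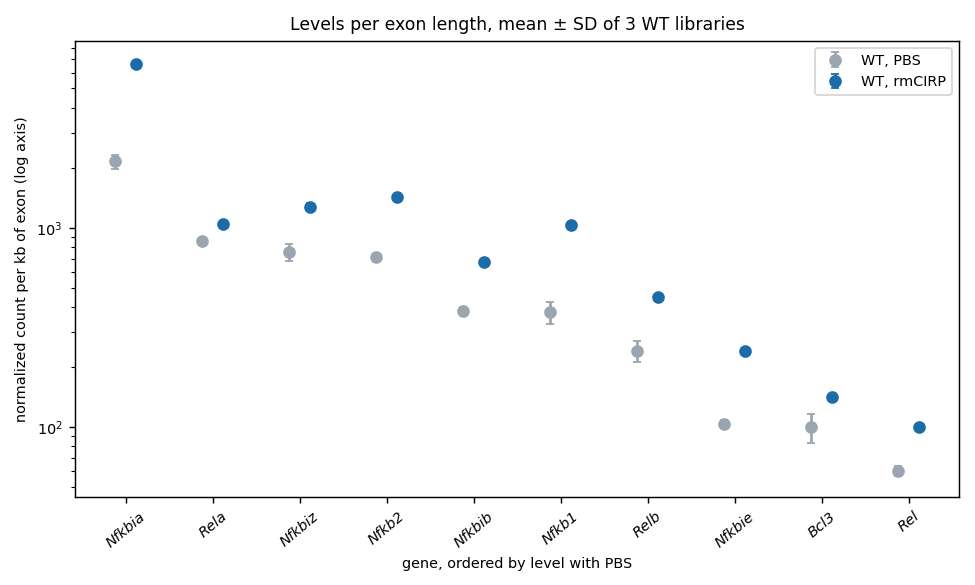
Normalized count per kilobase of exon on a log axis, for the 10 members ordered by their level with PBS. Points are means and bars SDs of 3 WT libraries (grey: PBS; blue: rmCIRP). Nfkbia is highest with either treatment, and Rela, next to it with PBS, lies below Nfkb2 and Nfkbiz with rmCIRP.

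The first question was how rmCIRP alone acted on the family in WT cells. All 10 members rose against PBS, from 1.22-fold for Rela to 3.07-fold for Nfkbia, while 19.8% of all genes tested were called higher. In all 10, every rmCIRP library lay above every PBS library, which held for 23.9% of all genes. The median log2 fold change of the members was 0.85, against -0.02 over all genes tested. Macrophage markers did not rise as a group in this comparison: 5 of 13 were higher and 8 lower, with a median of -0.32. Their sum was lower, at 81377 to 86718 with rmCIRP against 89627 to 97859 with PBS. Most of it was Lyz2 (means 62462 and 78175), while the means of Adgre1, Cd14, Ptprc, Fcgr1 and Marco were higher. The summed fibroblast markers were lower with rmCIRP, at 399219 to 438006 against 499896 to 541736 with PBS. Collagen genes made up most of this sum, with Col1a1 at means of 188256 with rmCIRP and 242156 with PBS. Means of Col1a2, Col3a1, Pdgfrb and Thy1 were also lower with rmCIRP, but those of Pdgfra (9554 against 7869), Dcn (10221 against 8048) and Lum (263 against 233) were higher. The sum of 5 neutrophil markers was higher, at 269 to 313 against 126 to 152, nearly all of it S100a8 (means 273 and 132 normalized counts), while S100a9 was at 0 in all libraries and Ly6g was at 0 with PBS and averaged 0.69 with rmCIRP. The sum of 6 epithelial markers was lower, at 19.1 to 24.7 against 41.6 to 63.5. The macrophage, fibroblast, neutrophil and epithelial sums did not overlap between the groups, and their part in the members' rise was not tested.

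Among the subunits, Nfkb1 moved most. It encodes p105, which is processed to p50, the DNA-binding partner of Rela. Its normalized counts were 4019, 5147 and 4425 with PBS and 12649, 11939.6 and 12645 with rmCIRP. The change was 1.45 log2 (SE 0.15, adjusted p = 9.0e-08) in the same test, with adjustment over all genes, as for every adjusted p that follows. Nfkb2 encodes p100, the precursor of p52 and itself an inhibitor of Relb. It had 3189, 3415 and 3233 counts with PBS and 6435, 6419 and 6769 with rmCIRP, a 1.99-fold rise, 0.99 log2 (SE 0.06, adjusted p = 2.5e-12) in edgeR.

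Rel, Relb and Rela carry the transactivation domains of the family. Relb, the partner of p52 in the noncanonical pathway, had 813, 978 and 1026 normalized counts with PBS and 1720.1, 1755 and 1782 with rmCIRP. It rose by 0.90 log2 (SE 0.09, adjusted p = 2.9e-08) in edgeR. Rel, best known from lymphocytes and macrophages, had 451, 422 and 471 with PBS and 733, 739.7 and 774 with rmCIRP, 0.73 log2 (SE 0.07, adjusted p = 1.8e-08) in edgeR. Rela, which encodes p65, the main activating subunit in most cells, had 2619, 2707 and 2550.0 with PBS and 3137, 3185 and 3292 with rmCIRP. Its rise was the smallest of the 10, 0.28 log2 (SE 0.04, adjusted p = 1.6e-06) in edgeR, and its 95% interval of 0.21 to 0.36 ended below the intervals of the other 4 subunits.

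The classical IκB genes rose too. Nfkbia encodes IκBα, the inhibitor that is destroyed and made anew within each round of activation. Its normalized counts were 3162, 3728 and 3506 with PBS and 10663, 10332 and 11002 with rmCIRP, the largest change in the family at 1.62 log2 (SE 0.10, adjusted p = 1.4e-11) in edgeR. Nfkbie encodes IκBε, which is also remade after activation but more slowly. From a low level of 314, 305 and 329.9 it went to 737, 709.9 and 754, by 1.21 log2 (SE 0.06, adjusted p = 8.8e-13) in edgeR. Nfkbib, for IκBβ, had 870.0, 829.6 and 792 with PBS and 1477, 1438 and 1442 with rmCIRP, 0.80 log2 (SE 0.06, adjusted p = 2.0e-10) in edgeR.

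The nuclear IκB proteins act as co-regulators: IκBζ, from Nfkbiz, is needed for full transcription of Il6 and other secondary genes, and Bcl3 binds p50 and p52 homodimers. Nfkbiz had 3404, 4143 and 3828 normalized counts with PBS and 6485, 6074 and 6636 with rmCIRP, a rise of 0.75 log2 (SE 0.15, adjusted p = 3.3e-04) in edgeR. Bcl3 had 209, 291 and 239 with PBS and 355, 336 and 359.6 with rmCIRP, 0.50 log2 (SE 0.11, adjusted p = 0.0011) in edgeR. These 2 spread more among PBS libraries than most members, and replicate 2 was the highest PBS library for both.

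**Figure D2:**
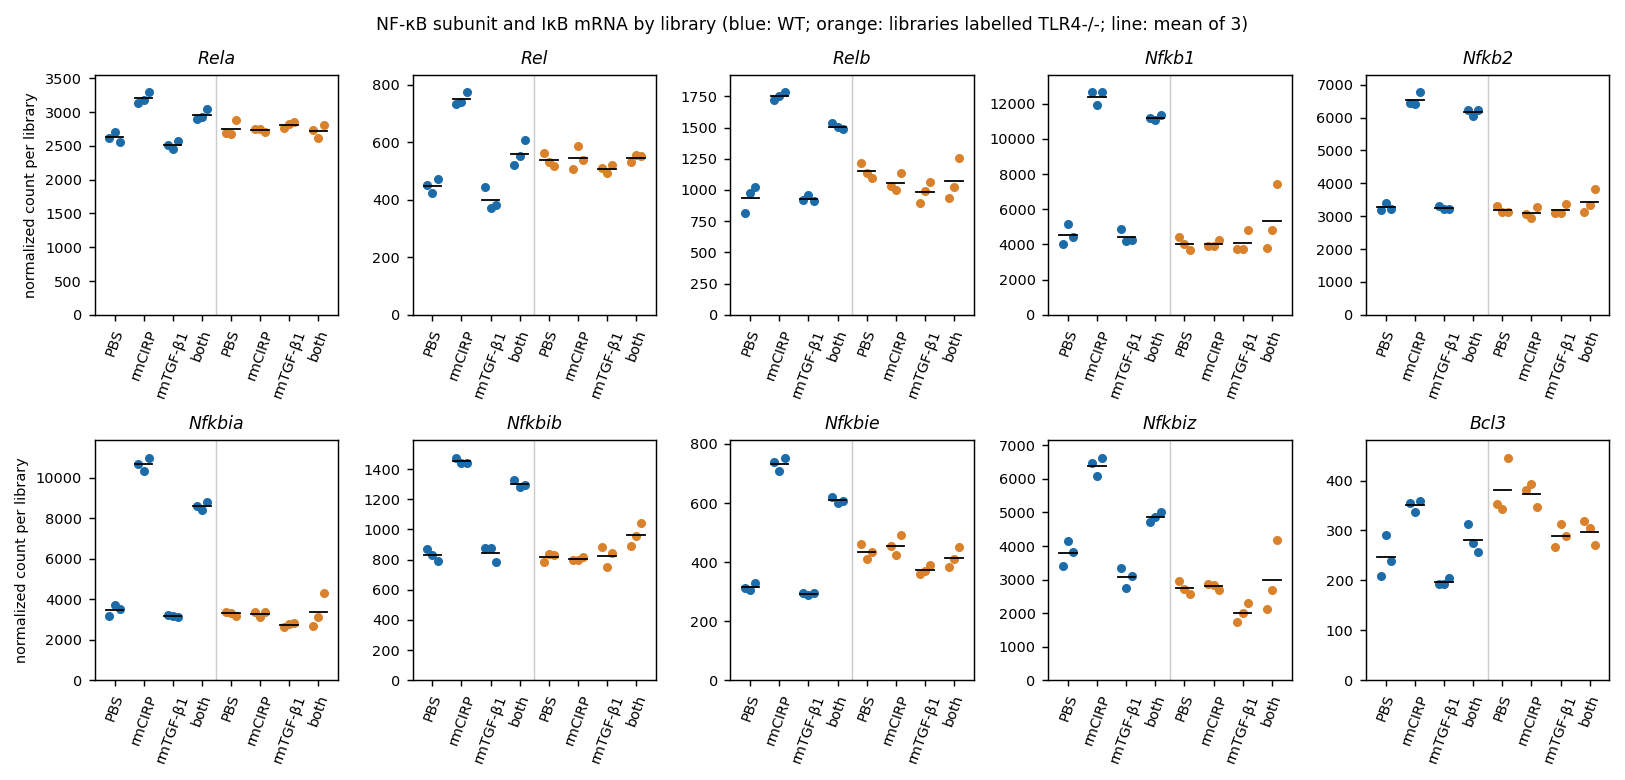
Normalized count of each member in all 24 libraries (blue: WT; orange: labelled TLR4-/-; black line: mean of 3), on axes that start at 0. In WT the rmCIRP libraries stand above the PBS libraries in all 10 panels, and in the labelled TLR4-/- libraries the PBS and rmCIRP points overlap in all 10.

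In the libraries labelled TLR4-/-, rmCIRP moved none of the 10 past the threshold in edgeR, and 0% of all genes were called. None had an unadjusted p under 0.05, against 1136 of the genes tested, and DESeq2 also called none of the 10. Fitted log2 changes ran from -0.12 for Relb to 0.07 for Nfkbie. The PBS and rmCIRP libraries overlapped for every member, where 13.7% of all genes did not overlap in one direction or the other. For Nfkbia, normalized counts were 3376, 3326 and 3189.6 with PBS and 3370.2, 3121 and 3379.7 with rmCIRP. For Nfkb1 they were 4398, 4034 and 3701 with PBS and 3914, 3920.0 and 4259 with rmCIRP. Neither gene's libraries separated. The 95% intervals bound what could have been missed: for Nfkbia the log2 change lay between -0.20 and 0.21, for Nfkb2 between -0.15 and 0.08 and for Rela between -0.08 and 0.07. They were widest for Nfkb1, from -0.31 to 0.31, and Nfkbiz, from -0.28 to 0.34. The spread behind these intervals includes the library that stood apart, from another condition. Without it, SEs for both agents against rmTGF-β1 in this genotype fell for some members and rose for others. They fell from 0.15 to 0.11 for Nfkb1, from 0.15 to 0.10 for Nfkbiz and from 0.10 to 0.06 for Nfkbia. Those of Relb and Nfkb2 also fell. They rose from 0.07 to 0.08 for Rel and from 0.11 to 0.12 for Bcl3, and slightly for Rela, Nfkbib and Nfkbie. In the fit of all libraries, the interval for rmCIRP against PBS was -0.30 to 0.06 for Relb and -0.24 to 0.20 for Bcl3. It was -0.06 to 0.20 for Nfkbie, -0.12 to 0.17 for Rel and -0.14 to 0.11 for Nfkbib.

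How far the genotypes differed in this response was tested as a contrast of its own, on the libraries already described. All 10 members responded less in the labelled TLR4-/- libraries, and 14.3% of all genes were called in that direction. The difference was largest for Nfkbia, at -1.61 log2 (SE 0.14, adjusted p = 1.2e-08), and for Nfkb1, at -1.45 log2 (SE 0.21, adjusted p = 2.5e-05), both in edgeR. It was -1.14 log2 (SE 0.09, adjusted p = 2.4e-09) for Nfkbie, -1.02 log2 (SE 0.08, adjusted p = 1.6e-09) for Nfkb2 and -1.01 log2 (SE 0.12, adjusted p = 2.0e-06) for Relb, again in edgeR. Rela, with the smallest response in WT, also had the smallest difference, -0.28 log2 (SE 0.05, adjusted p = 2.4e-04) in edgeR. Between these lay Nfkbib with -0.82, Nfkbiz with -0.72, Rel with -0.71 and Bcl3 with -0.53 (log2). The genotypes also differed in lung pool, in Xist and Ddx3y, and in markers of macrophages and other cell types. The part of these in the difference was not tested.

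**Figure D3:**
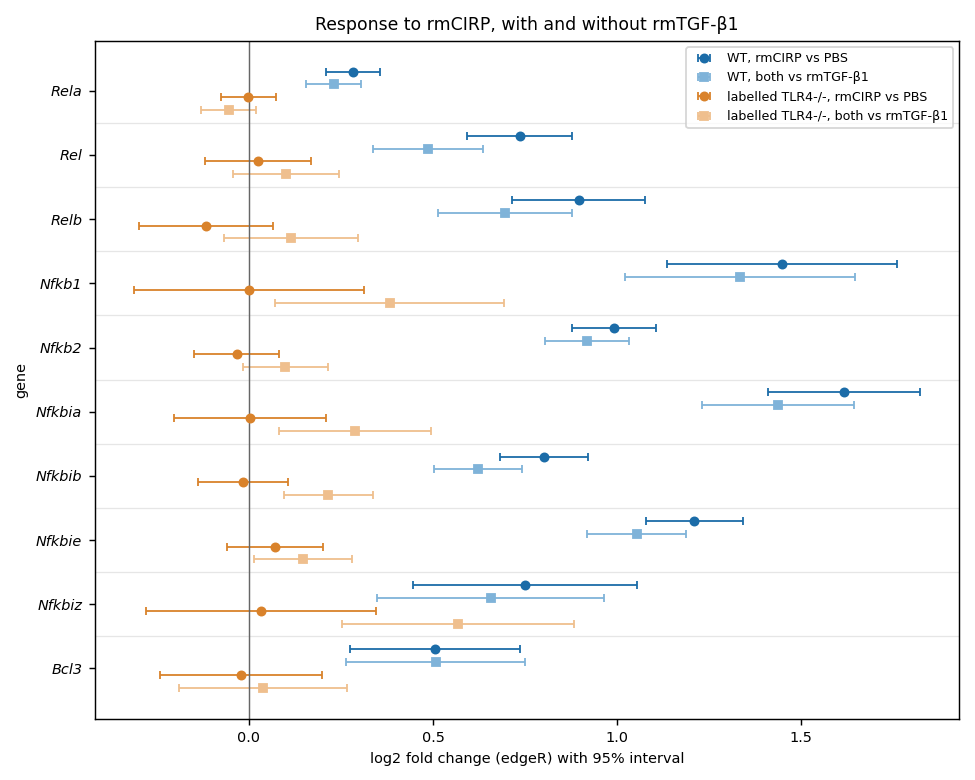
Log2 fold change and 95% interval of each member from edgeR, for rmCIRP against PBS (circles) and for both agents against rmTGF-β1 (squares), in WT (blue shades) and labelled TLR4-/- libraries (orange shades). All 20 WT estimates and their intervals lie above 0, from Rela at 0.28 and 0.23 to Nfkbia at 1.62 and 1.44.

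The design also asked whether the response to rmCIRP held in the presence of rmTGF-β1. In WT cells given both agents, all 10 members were higher than with rmTGF-β1 alone, against 20.5% of all genes, with a median of 0.68. Nfkbia had 3227, 3177 and 3110.3 normalized counts with rmTGF-β1 and 8605, 8422 and 8808 with both, 1.44 log2 (SE 0.10, adjusted p = 1.1e-10) in edgeR. Nfkb1 stood at 4852, 4192 and 4239 without rmCIRP and at 11178, 11051 and 11349.7 with it, 1.33 log2 (SE 0.15, adjusted p = 3.4e-07) in edgeR. For each of the 10 genes all libraries with both agents lay above all libraries with rmTGF-β1, which held for 24.9% of all genes. Nfkbie rose by 1.05, Nfkb2 by 0.92, Relb by 0.70, Nfkbiz by 0.66, Nfkbib by 0.62, Bcl3 by 0.51, Rel by 0.49 and Rela by 0.23 (log2).

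The rise with rmCIRP was, in the fit, smaller beside rmTGF-β1 for 9 of the 10 members, with a median difference of -0.14 on the log2 scale, yet this interaction passed the threshold for none in edgeR or DESeq2. It was called for 0.0492% of all genes. The estimate farthest from 0 was that of Rel, -0.25 log2 (SE 0.10, adjusted p = 0.81) in edgeR, whose normalized counts were 733, 739.7 and 774 with rmCIRP and 520.0, 552 and 606 with both agents. Rel and Nfkbib, at -0.18 (95% interval -0.35 to -0.01), were the 2 members with an unadjusted p under 0.05. For Nfkbia the interval of the interaction was -0.47 to 0.11 and for Nfkb1 -0.55 to 0.32. The estimates for the other members were -0.20 for Relb, -0.16 for Nfkbie, -0.09 for Nfkbiz, -0.07 for Nfkb2, -0.05 for Rela and 0.0028 for Bcl3 (log2).

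In the labelled TLR4-/- libraries, both agents against rmTGF-β1 gave 2 members called higher, Nfkbiz and Nfkbib, where 1.56% of all genes were called higher. Nfkbiz had 1727, 2005 and 2296 normalized counts with rmTGF-β1 and 2123, 2681 and 4184 with both, 0.57 log2 (SE 0.15, adjusted p = 0.085) in edgeR. Nfkbib stood at 880.5, 750.3 and 845 without rmCIRP and at 889.6, 959 and 1040.4 with it, 0.21 log2 (SE 0.06, adjusted p = 0.090) in edgeR. The libraries of Nfkbiz overlapped, and replicate 3 with both agents was its highest, as it was for Nfkbib. The libraries of Nfkbib and Rel did not overlap, with those of both agents above, as for 6.99% of all genes. Of the members not called, Nfkb1 had a log2 fold change of 0.38, Nfkbia 0.29, Nfkbie 0.15, Relb 0.11, Rel 0.10, Nfkb2 0.10, Bcl3 0.04 and Rela -0.06.

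That library carried a rise seen in several members. In it Nfkb1 had 7410 normalized counts beside 3817 and 4838 in replicates 1 and 2, and Nfkbia had 4312 beside 2691 and 3097. Relb, Nfkb2 and Nfkbie were also highest there, at 1258, 3831 and 452, while Bcl3 was lowest, at 269.9. Il6, a cytokine gene driven by NF-κB, had 23010 counts in it beside 8065 and 12233, but Tnf had 538 beside 729.9 and 671, and Il1b had 73.1 beside 66.1 and 112. The summed fibroblast markers were 391672 in replicate 3 beside 494247 and 452532, and the summed macrophage markers were 415181 beside 363902 and 332517. The summed endothelial markers were 737 beside 390 and 309, and the neutrophil markers 397 beside 126 and 156. The epithelial sum was 161 beside 226 and 189, and the lymphocyte sum 11.3 beside 6.90 and 10.7. Their part in the result was not tested. Without this library no member was called: the log2 fold change of Nfkbiz went to 0.25 (SE 0.10, adjusted p = 0.50 in edgeR), that of Nfkbib to 0.16 (SE 0.06, adjusted p = 0.45 in edgeR) and that of Nfkb1 from 0.38 to 0.08. Leaving out rmTGF-β1 replicate 1 or 2 of this genotype also ended both calls, at adjusted p between 0.21 and 0.40 in edgeR. Without rmTGF-β1 replicate 3, the library noted above, 4 members were called, with Nfkb1 at 0.52 log2 (SE 0.16, adjusted p = 0.054) and Nfkbia at 0.31 log2 (SE 0.11, adjusted p = 0.095) added in edgeR.

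rmTGF-β1 alone left most of the family close to PBS in WT cells. Only Bcl3 was called, lower by -0.32 log2 (SE 0.12, adjusted p = 0.098) in edgeR, where 6.65% of all genes were called lower. Its normalized counts were 209, 291 and 239 with PBS and 194, 193 and 205 with rmTGF-β1. The groups did not overlap, yet the call was lost in 5 of the 6 fits that left out 1 library. Without PBS replicate 2 the log2 fold change was -0.18 and the adjusted p = 0.47 in edgeR. The call was also lost without PBS replicate 3 or any one of the rmTGF-β1 libraries. Nfkbiz, at -0.31 log2 (SE 0.15, adjusted p = 0.23) in edgeR, and Nfkbie, at -0.12, did not pass the threshold although their libraries did not overlap. Nfkbiz was called in the edgeR fit of only the libraries compared, at -0.29 log2 (SE 0.07, adjusted p = 0.016). It was also called without a filter on low counts, at -0.29 log2 (SE 0.05, adjusted p = 6.4e-07) in edgeR. In both of these fits the estimate stayed near the -0.31 of the main fit, while the SE was smaller than its 0.15. Bcl3, Nfkbiz and Nfkbie lay below PBS in every library, as did 15.6% of all genes. The other members overlapped, with log2 fold changes of -0.18 for Rel, -0.13 for Nfkbia, -0.07 for Rela, -0.04 for Nfkb1, -0.02 for Relb, -0.02 for Nfkb2 and 0.02 for Nfkbib. Rel, with an unadjusted p of 0.023 in edgeR, was called without rmTGF-β1 replicate 1, at -0.26 log2 (SE 0.07, adjusted p = 0.036).

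In the labelled TLR4-/- libraries 5 members were called lower with rmTGF-β1, against 11.7% of all genes. Nfkbiz, the co-regulator IκBζ, went from 2959, 2711 and 2564 to 1727, 2005 and 2296 normalized counts, -0.44 log2 (SE 0.15, adjusted p = 0.048) in edgeR. Bcl3 went from 353, 343 and 446 to 267, 312 and 289.8, -0.39 log2 (SE 0.11, adjusted p = 0.015) in edgeR. Both separated from PBS in every library. Nfkbia changed by -0.26 log2 (SE 0.10, adjusted p = 0.080), Relb by -0.22 log2 (SE 0.09, adjusted p = 0.090) and Nfkbie by -0.22 log2 (SE 0.06, adjusted p = 0.022), also in edgeR and also without overlap. Of all genes, 17.9% lay below PBS without overlap. The other 5 members, Nfkb1, Nfkb2, Rela, Rel and Nfkbib, had log2 changes between -0.08 and 0.04. These calls are near the threshold: leaving out any one of the 6 libraries left between 1 and 4 of the 5, with Bcl3 the 1 member kept without PBS replicate 1, and Nfkbia was lost each time.

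The response to rmTGF-β1 was not shown to differ between genotypes for any member, in edgeR or in DESeq2, and 0.0861% of all genes were called. One member, Rela, had an unadjusted p under 0.05, with a difference of 0.11 log2 (SE 0.05, adjusted p = 0.45) in edgeR. For Bcl3 the difference was -0.07 with a 95% interval of -0.40 to 0.27, and for Nfkbiz -0.14 with -0.58 to 0.31, so that a difference as large as the change in either genotype lay within both intervals. The estimates were -0.20 for Relb, -0.12 for Nfkbia, -0.10 for Nfkbie, 0.10 for Rel, 0.06 for Nfkb1, 0.02 for Nfkb2 and 0.00031 for Nfkbib (log2).

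**Figure D4:**
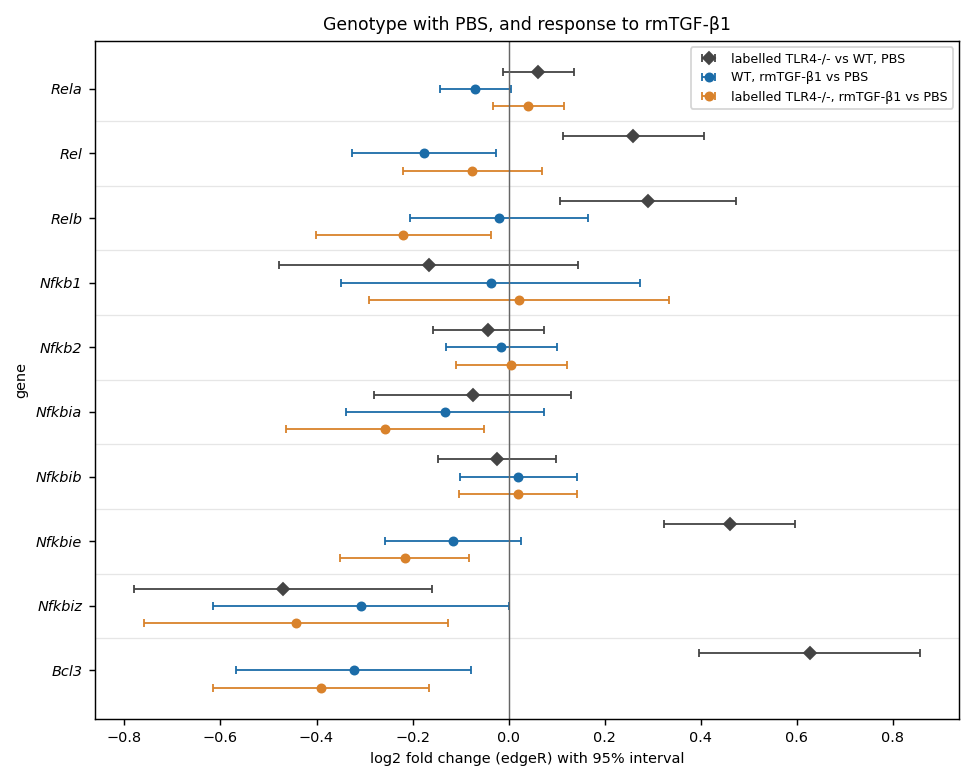
Log2 fold change and 95% interval of each member from edgeR, for labelled TLR4-/- against WT with PBS (black diamonds) and for rmTGF-β1 against PBS in WT (blue) and labelled TLR4-/- libraries (orange). Bcl3 lies at 0.63 for genotype and at -0.32 and -0.39 for rmTGF-β1, and the 3 comparisons share PBS libraries.

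Before any treatment the genotypes already differed in part of the family. With PBS, 4 members were higher in the labelled TLR4-/- libraries, where 23.2% of all genes were called higher, and 1 was lower, where 24.0% of all genes were called lower. The counts of members are not far from these shares. Bcl3 had 209, 291 and 239 normalized counts in WT and 353, 343 and 446 in the labelled TLR4-/- libraries, 0.63 log2 (SE 0.11, adjusted p = 8.3e-05) in edgeR. Nfkbie had 314, 305 and 329.9 in WT and 461, 411 and 434 in the others, 0.46 log2 (SE 0.07, adjusted p = 5.5e-06) in edgeR. Relb was higher by 0.29 and Rel by 0.26 (log2). Nfkbiz was lower, by -0.47 log2 (SE 0.15, adjusted p = 0.015) in edgeR. None of these 5 genes overlapped between genotypes, but 25.5% of all genes lay higher and 26.3% lower without overlap, so that this count is near the background. The remaining members overlapped, with log2 differences of -0.17 for Nfkb1, -0.07 for Nfkbia, 0.06 for Rela, -0.04 for Nfkb2 and -0.02 for Nfkbib.

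Macrophage markers moved with genotype beside these genes. Of 13, 12 were higher and 1 lower in the labelled TLR4-/- libraries with PBS, with a median log2 difference of 1.89, and none of the 13 was at 0 in all libraries. Lyz2, the lysozyme of macrophages, averaged 78175 normalized counts in WT and 281642 in the labelled TLR4-/- libraries, and Marco, a scavenger receptor, 954 and 405. Tnf was also higher before treatment, at 234, 268 and 291 in WT and 977, 1009 and 967 in the labelled TLR4-/- libraries. The part of the macrophage markers, and of the difference in Xist, in the levels of Bcl3, Nfkbie, Relb, Rel and Nfkbiz was not tested.

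Across the 8 conditions each member was highest in WT cells given rmCIRP, except Bcl3, which was highest in the labelled TLR4-/- libraries with PBS, at 381 ± 56.8 (SD, n = 3), followed by the same libraries with rmCIRP, at 374 ± 23.7, and WT with rmCIRP, at 350.5 ± 12.4. These 3 conditions overlapped. WT cells given both agents came second for Rela, Relb, Nfkb1, Nfkb2, Nfkbia, Nfkbib, Nfkbie and Nfkbiz, below WT rmCIRP and above the next condition without overlap on either side. The 6 other conditions mostly overlapped their neighbours: for Nfkb2 their means ran only from 3107 ± 173 to 3430.0 ± 364. Without replicate 3 of the labelled TLR4-/- libraries given both agents, an alternative chosen after seeing the data, these first and second places and the overlaps named stayed as they were. That condition's mean went from 5355 ± 1851 to 4327 ± 722 (SD, n = 2) for Nfkb1 and from the highest to the third highest of the 6 for Nfkb2, whose means then ran to 3279 ± 120 at most.

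How alike the members were over the 8 conditions was described by Pearson's r of condition means of log2(normalized count + 1), which share libraries and treatments and are given without a test. Nfkb1 and Nfkb2 were closest, with r = 0.996, and Nfkbia was close to both, at 0.983 and 0.989. Bcl3 stood farthest from the others, with r = 0.116 to Nfkb1 and 0.0381 to Nfkbiz, and was nearest to Rel, at 0.750. Among 12301 other genes, those most like Nfkbia were Ccl2, a monocyte chemokine (r = 0.9989), Sod2, the mitochondrial superoxide dismutase (0.9974), and Il6 (0.9955). For Nfkb1 they were Slc7a2, an arginine transporter (0.9984), Lrrc8d, a part of a volume-regulated anion channel (0.9971), and the protease gene Mmp10 (0.9964). Nfkbie was followed most closely by Lacc1 (0.9876), Ankfy1 (0.9869) and Tlr3, a receptor for double-stranded RNA (0.9860). Without the library that stood apart, Nfkb1 and Nfkb2 were again closest, at 0.999, and Bcl3 was again nearest to Rel, at 0.752. The genes most like Nfkbia were then Ccl2 (0.999), Zc3h12a (0.9978) and Il6 (0.9974), with Sod2 at 0.997, and those most like Nfkb1 were Stip1 (0.9989), Slc7a2 (0.9985) and Lrrc8d (0.997), with Mmp10 at 0.9951. Those of Nfkbie remained Lacc1 (0.9945), Tlr3 (0.9902) and Ankfy1 (0.9875).

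The rest of the pathway was described from lists. Of 11 kinases and kinase partners upstream of NF-κB, 4 rose and 2 fell with rmCIRP in WT cells, with a median log2 fold change of 0.04. Over all genes tested, 19.8% rose and 24.1% fell, and each list is to be read against these shares. The largest rises were those of Map3k8, which encodes the kinase TPL2, at 1.03 (SE 0.12, adjusted p = 3.7e-07 in edgeR), and of Ikbke, an IKK-related kinase, at 0.81. Map3k14, the NF-κB-inducing kinase of the noncanonical pathway, fell by 0.24, and Chuk, for IKKα, by 0.08. The call of Chuk was lost in some alternatives, among them 4 of the 6 fits that left out 1 library. Ikbkb, for IKKβ, rose by 0.25 and Ikbkg, the scaffold NEMO, had 0.14 and did not pass.

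Of 16 ubiquitin enzymes and adaptors, 11 rose and 1 fell, with a median of 0.28. Traf1, an adaptor of TNF receptors, had 25.02, 27.95 and 29.1 normalized counts with PBS and 660.0, 632 and 723 with rmCIRP, a rise of 4.61 on the log2 scale (SE 0.17, adjusted p = 2.1e-15 in edgeR). Tnfaip3, for the deubiquitinase A20, which shuts NF-κB signalling off, rose by 2.38, and Fbxw11, a subunit of the ligase that destroys IκB, by 0.10. Rbck1, of the linear ubiquitin complex, fell by 0.12, a call lost in some alternatives, among them 4 of the 6 fits that left out 1 library. Of 10 other regulators, 4 rose and 2 fell, with a median of 0.10, the falls near the share over all genes. Malt1, a protease and scaffold, rose by 2.05 and Tifa by 0.40. Pdlim2, a nuclear ligase that acts on p65, fell from 2735, 2549.8 and 2808 to 1563, 1536 and 1473 normalized counts, by 0.83. Nkiras2, an IκB-binding small G protein, fell by 0.09. Its call was again lost in some alternatives, among them 5 of the 6 fits that left out 1 library.

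Of 24 textbook NF-κB target genes, 22 rose and 2 fell in WT cells with rmCIRP, with a median of 2.39. Il1b had 15.4, 13.98 and 21.9 normalized counts with PBS and 15923, 15495 and 16809.7 with rmCIRP, a rise of 9.87 on the log2 scale (SE 0.16, adjusted p = 6.7e-22 in edgeR). Il12b, a subunit of interleukins made mainly by macrophages and dendritic cells, was at 0 in every PBS library and at 1227, 893 and 1093 with rmCIRP, at least 357-fold higher against a floor of 3 counts per library. Ccnd1, for cyclin D1, fell by 0.74 and Bcl2l1, an inhibitor of apoptosis, by 0.35. In the labelled TLR4-/- libraries rmCIRP moved 0 genes of any of the 4 lists past the threshold in edgeR, and the medians were 0.02 for the kinases, -0.02 for the ubiquitin enzymes and adaptors, -0.03 for the other regulators and -0.05 for the targets.

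**Figure D5:**
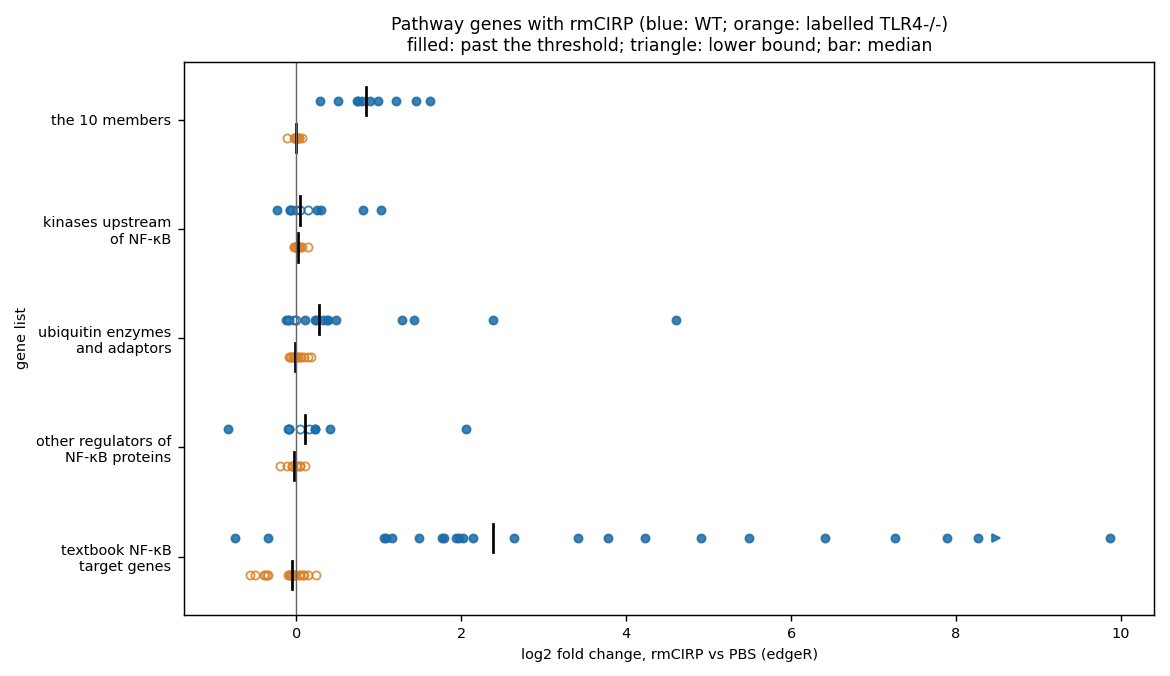
Log2 fold change with rmCIRP against PBS of the 10 members and of 4 lists of pathway genes, from edgeR, in WT (blue) and labelled TLR4-/- libraries (orange). Filled symbols passed the threshold, bars are medians, and the triangle is the lower bound of Il12b. Il12b and Csf2, at or under 3 counts in both groups, are left out of the labelled TLR4-/- row. The blue medians are 0.85 for the members and 2.39 for the targets, and no orange symbol is filled.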

How the data were processed

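Total RNA of 24 libraries was prepared with a stranded kit, and per the study's methods reads were checked with FastQC, aligned to mouse GENCODE with STAR2 and counted per gene symbol with ht-seq. The authors deposited raw read counts, 1 file per library, without normalization. The annotation release, and whether counting used strand, are not given in the sources used here. The submitters' processing notes name the build NCBIM37. The ht-seq tallies of unassigned reads, 14.5 to 16.1% of each file's total, were left out.

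From these counts, genes were filtered with filterByExpr, libraries were scaled by TMM and glmQLFit of edgeR 4.0.16 fitted 1 mean per condition to all libraries together (R 4.3.3). Contrasts had a quasi-likelihood F-test, with Benjamini-Hochberg adjustment over all genes tested and a threshold of 0.1, as in the study. The procedure was tested on simulated data. Normalized counts are counts divided by size factors of DESeq2 1.42.0. Groups came from the labels. Exon lengths and overlaps came from GENCODE M21, and promoter sequences from RefSeq (GRCm38.p6). Intervals are 95%.

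The members and lists were chosen with earlier results of these data known. All members are named in every comparison. From each pathway list, the text names the 2 highest and 2 lowest log2 fold changes past the threshold in WT rmCIRP against PBS, and for the 3 members with the largest change there, the 3 other genes most like each over the 8 conditions (mean of at least 50 normalized counts). Cytokine genes, Ikbkb, Ikbkg, single markers and Xist were named after their values were seen. Alternatives were DESeq2's Wald test, RLE normalization, no filter on low counts, the replicate number as a block, and a fit of only the libraries compared. Each library was also left out in turn, for the comparisons that include its condition.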

Additional observations from a re-analysis of the deposited data

Results flagged for a closer look

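The response to rmCIRP differed between genotypes by the test of the difference itself for all 10 members. In the libraries labelled TLR4-/- it was lower, on the log2 scale, by these differences from WT: -1.61 for Nfkbia, -1.45 for Nfkb1, -1.14 for Nfkbie, -1.02 for Nfkb2, -1.01 for Relb, -0.82 for Nfkbib, -0.72 for Nfkbiz, -0.71 for Rel, -0.53 for Bcl3 and -0.28 for Rela. In edgeR the adjusted p ran from 1.6e-09 for Nfkb2 to 0.015 for Nfkbiz. The part of lung pool, Xist, Ddx3y and markers of macrophages and other cell types, which also differed between the genotypes, was not tested. Every difference was past the threshold under DESeq2, RLE normalization, no filter, the block and the fit of only the libraries compared. The same held without any one of the 12 libraries in the contrast. Libraries of other conditions were not left out for it.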

How the results depend on the processing

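All 10 members stayed called for rmCIRP in WT, alone or beside rmTGF-β1, and for the genotype difference in that response, under every alternative run. None was called for rmCIRP in labelled TLR4-/- libraries, for the genotype difference in the rmTGF-β1 response or for the WT interaction under any. Counts elsewhere moved, and the cause was not tested. For rmCIRP in labelled TLR4-/- libraries, 0 genes were called, but 32 with DESeq2, 149 without a filter, 1 with the block, 29 with only the libraries compared and 0 to 9 when one library was left out. For both agents against rmTGF-β1 in labelled TLR4-/- libraries, 437 genes became 924 with DESeq2, 1580 without a filter, 810 with the block, 0 with only the libraries compared and 0 to 2674 with one library left out. There, 2 members became 3 with DESeq2, which added Nfkbia at 0.29 log2 (SE 0.10, adjusted p = 0.070 by its Wald test). They became 4 without a filter, 0 with only the libraries compared and 0 to 6 with one library left out (6 without replicate 1 of both agents). For rmTGF-β1 in WT, 1 member became 0 with RLE or the block and 2, Bcl3 and Nfkbiz, without a filter or with only the libraries compared. It became 0 to 1 with one library left out (Rel in place of Bcl3 without rmTGF-β1 replicate 1), where 2019 genes became 1029 to 1690. For rmTGF-β1 in labelled TLR4-/- libraries, 5 members became 1 to 4 and 3884 genes 2517 to 3783 with one library left out. The genotype difference in that response, 14 genes, became 173 with DESeq2, 563 without a filter, 22 with the block and 0 to 119 with one library left out. The WT interaction, 8 genes, became 39 with DESeq2, 198 without a filter, 125 with only the libraries compared and 2 to 7 with one library left out. For 84 pairs of libraries that share a number across conditions, the deviations from condition means had correlations of -0.111 to 0.350 (mean 0.0111), so the numbers were not taken to pair the libraries. The block ended 1 member's call, that of Bcl3 with rmTGF-β1 in WT, at -0.32 (adjusted p = 0.11 in edgeR). Where a member was not called, changes within its interval could not be told from none with 3 libraries a condition.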
